A study of Mus musculus with 6 samples.

Results

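The genes described are 10 members of the epidermal growth factor (EGF) family and its receptors, found in the sciatic nerve of newborn mice: the ligand genes *Nrg1*, *Btc*, *Areg*, *Ereg*, *Hbegf* and *Tgfa*, and the receptor genes *Egfr*, *Erbb2*, *Erbb3* and *Erbb4*. They were found by their symbol in the table of gene values, which holds 59485 genes, and each of the 10 symbols matched 1 row. Sciatic nerves were collected at P4 from 3 animals labelled wild-type and 3 animals labelled Ht-PA-Cre; Adar1fl/fl;R26R, and each animal gave 1 library of poly-A RNA. In the latter, Cre under the promoter of human tissue plasminogen activator removes floxed *Adar1* (*Adar* in the table) in neural crest (NC) cells, which give rise to Schwann cells (SCs). According to the methods, wild-type animals carry the same floxed allele on one or both chromosomes but no Cre, and all animals carry the R26R reporter. The nerve was sequenced whole, so each value is a sum over SCs, in which *Adar1* can be deleted, and other cells. These include fibroblasts, vessels and blood, not all of which come from the NC.

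EGF family ligands are made as precursors in the cell membrane and are released by metalloproteases. Amphiregulin (*Areg*) and TGF-alpha (*Tgfa*) bind EGFR, betacellulin (*Btc*), epiregulin (*Ereg*) and HB-EGF (*Hbegf*) bind EGFR and ERBB4, and neuregulin-1 (*Nrg1*) binds ERBB3 and ERBB4. ERBB2 has no known ligand and serves as a partner of the other receptors, while ERBB3 has almost no kinase activity of its own. In the developing nerve, neuregulin-1 carried by axons acts on the ERBB2/ERBB3 pair of SCs and controls their survival, migration and myelination, and neuregulin-1 made by SCs themselves is known from injured nerves.

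*Ereg*, *Areg* and *Btc* lie close together on chromosome 5, and all of them were higher in mutant-labelled libraries, so the bases before the start of the genes are shown where a reference sequence was matched. RefSeq (GRCm38.p6) gave a start for 6 of the 10 genes, among them *Areg* and *Btc*. The 250 bases before each start are printed on the strand of the gene, chr5:91139349-91139598 on the plus strand for *Areg* and chr5:91402995-91403244 on the minus strand for *Btc*. Capitals mark the motifs found.
Areg: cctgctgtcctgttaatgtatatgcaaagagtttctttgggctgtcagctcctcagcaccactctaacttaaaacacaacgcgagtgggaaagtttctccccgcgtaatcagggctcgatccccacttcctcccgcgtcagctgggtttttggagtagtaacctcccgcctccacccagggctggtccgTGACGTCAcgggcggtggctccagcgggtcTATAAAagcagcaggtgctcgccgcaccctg
Btc: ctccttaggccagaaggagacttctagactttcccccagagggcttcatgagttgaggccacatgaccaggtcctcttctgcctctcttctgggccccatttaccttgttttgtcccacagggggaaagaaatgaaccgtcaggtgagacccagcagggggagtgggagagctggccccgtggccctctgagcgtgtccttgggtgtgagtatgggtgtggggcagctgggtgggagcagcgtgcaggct

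Of 7 motifs searched on both strands, *Areg* held 2. The cAMP response element TGACGTCA lay 61 to 54 bases before its start and was present in 1.55% of 32851 promoters of the same length. The TATA box TATAAA lay 31 to 26 bases before its start and was present in 12.4% of promoters. The other motifs were the interferon-stimulated response element (ISRE, in 2.98% of promoters), TTCNNNGAA (the STAT site GAS, 7.02%), the NF-kB site (4.65%), TGANTCA (AP-1, 6.75%) and GTGGGCG (EGR, 7.02%). None of these 5 motifs was found in the windows of *Areg*, *Btc*, *Egfr*, *Erbb2*, *Erbb4* or *Tgfa*.

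The libraries held between 50938349 and 78250094 reads on genes, and 1 read was worth a normalized value of 0.727 to 1.27. Values are read counts divided by a size factor per library. They were compared as log2(value + 1) with limma over the 25802 genes whose mean reached 10 in either group. Genes are said to have risen or fallen when they differed 2-fold or more with an unadjusted p of 0.05 or less, the threshold used throughout. The adjusted p is the Benjamini-Hochberg value over all tested genes, and errors of values are SDs over 3 libraries. The targeted gene *Adar* (GSMG0024553) had values of 1133 to 2066 in controls and 9311 to 11768 in mutants. This rise (2.72 on the log2 scale, standard error 0.20, adjusted p = 4.1e-05) goes against the deletion in the labels, and 1 value per gene cannot tell the deleted segment from the rest. For this reason libraries are named by label (control-labelled, mutant-labelled), and all directions rest on the labels.

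All 10 genes were tested, and 8 passed the threshold, where 24.2% of all tested genes did. Of the 6 ligand genes, 5 rose and 1 fell, against 13.9% of tested genes that rose and 10.4% that fell. Of the 4 receptor genes, none rose, 2 fell, and 2 stayed under a 2-fold change. With an adjusted p at or under 0.05 as well, 7 of the 10 passed, beside 19.9% of all tested genes. The values of both groups did not overlap for 9 of the 10 genes, compared with 49.2% of all tested genes. The median log2 fold change was 4.86 over the ligand genes (3.88 with *Areg* and *Ereg*, which had no reads in the controls, at their lower bounds), -1.0 over the receptor genes and 0.03 over all tested genes. *Nrg1*, *Areg* and *Ereg* reached the minimum mean value through the mutant-labelled libraries alone, so a difference was built into their being tested, and these counts and medians are given as description. In nerve RNA, fewer cells of a type and less RNA per cell cannot be told apart, and this holds for every value given.

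**Figure D1:**
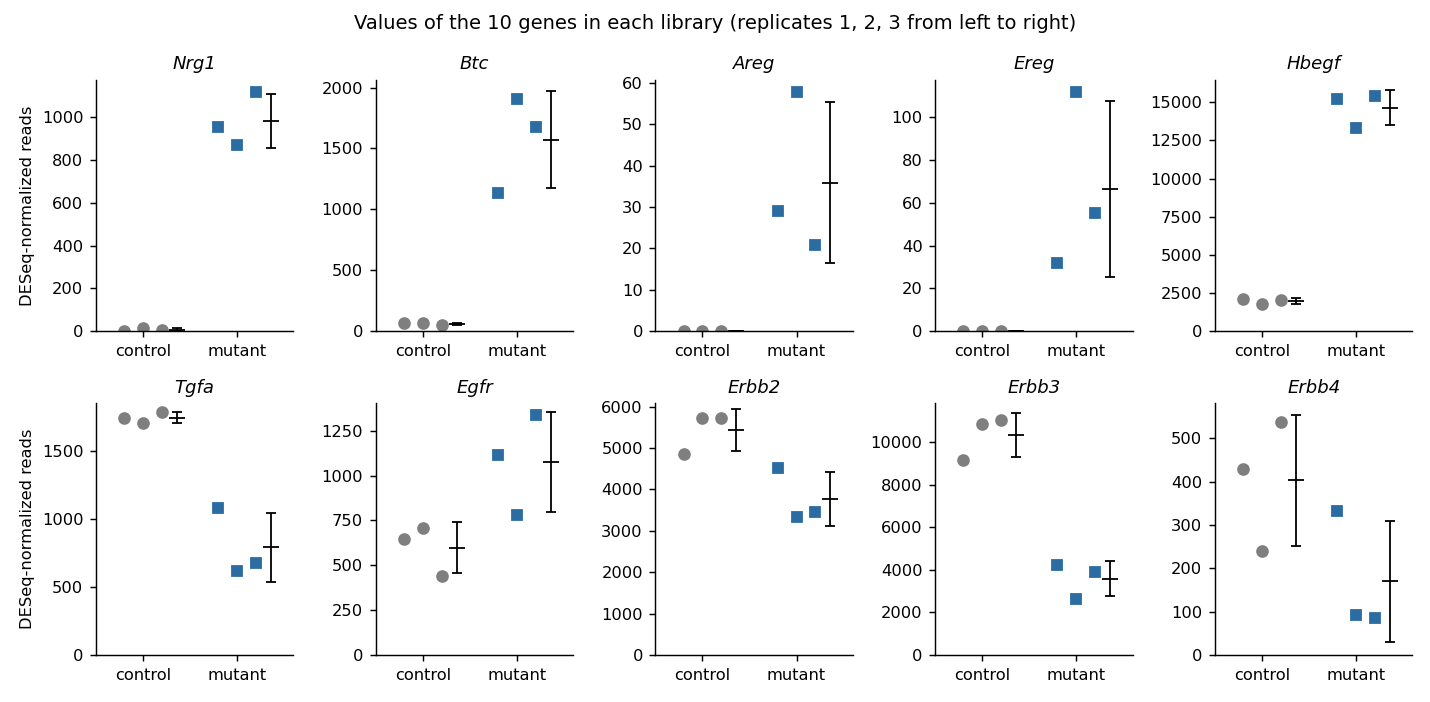
Normalized reads (vertical axis, linear, a scale of its own for each gene) of the 10 genes in control-labelled (grey circles) and mutant-labelled (blue squares) libraries, with the mean and SD of 3 libraries beside the points. The groups overlap only for *Erbb4*, where mutant replicate 1, at 332, lies above control replicate 2, at 239.

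*Nrg1* (GSMG0038251, chromosome 8, 31817756 to 32009493, minus strand) had values of 0, 15.1 and 7.60 in control replicates 1, 2 and 3, which stand for 0, 16 and 6 reads. In mutant replicates 1, 2 and 3 the values were 957, 871 and 1121, from 1316, 903 and 1133 reads. *Nrg1* was thus close to undetected in every control-labelled nerve and well detected in every mutant-labelled one. The means were 7.57 ± 7.56 and 983 ± 127 (SD, n = 3 each), a 130-fold ratio that rests on a control mean of few reads. The log2 fold change was 7.56 (standard error 0.90, 95% interval 5.51 to 9.62, adjusted p = 0.000403). It was 6.38 without control replicate 1, the library at 0, and 8.38 without control replicate 2, and it passed in both cases.

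The table gives *Nrg1* a single value, counted on regions that its transcripts share, so the axonal and the secreted forms of neuregulin-1 cannot be told apart. GENCODE lists 18 transcripts for the gene, and 2 of them start upstream of the model used in the table, by up to 875 kb. A gene without a symbol (GSMG0037162, chromosome 8, 32008502 to 32015759) shares 992 bases with the start of *Nrg1* on the opposite strand. Its values were 0, 15.1 and 10.1 in control replicates and 135, 96.5 and 80.1 in mutant replicates. Like *Nrg1*, it reached the minimum mean through the mutant-labelled libraries alone. The libraries were oriented, but whether the counting used strand is not given in the sources used here.

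*Btc* (GSMG0030723, chromosome 5, 91357261 to 91402995, minus strand), the gene of betacellulin, had values of 64.4, 64.3 and 53.2 in control replicates and 1133, 1905 and 1677 in mutant replicates. The mean rose from 60.6 ± 6.41 to 1572 ± 396, a 25.9-fold ratio. Even the lowest mutant-labelled library stood far above every control-labelled one. The log2 fold change was 4.65 (standard error 0.24, 95% interval 4.11 to 5.19, adjusted p = 6.97e-06).

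*Areg* (GSMG0029413, chromosome 5, 91139599 to 91148432, plus strand) had no reads in any control-labelled library. In mutant replicates 1, 2 and 3 it had 40, 60 and 21 reads, or values of 29.1, 57.9 and 20.8 (mean 35.9 ± 19.5). *Areg* was therefore a weakly detected transcript that appeared in all mutant-labelled libraries, at least 10.8-fold higher than a floor of 3 reads per control-labelled library (adjusted p = 0.00183).

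*Ereg* (GSMG0029412, chromosome 5, 91074617 to 91093649, plus strand) had no reads in the control-labelled libraries either. It had 44, 116 and 56 reads in mutant replicates 1, 2 and 3, or values of 32.0, 112 and 55.4 (mean 66.4 ± 41.1). This made it at least 20-fold higher than the same floor (adjusted p = 0.000701). For *Areg* and *Ereg* alike, mutant replicate 2 was the highest library. Such a floor covers counting error alone, because reads copied by PCR and not tagged with molecular identifiers do not stand for separate molecules.

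*Hbegf* (GSMG0018854, chromosome 18, 36504927 to 36515806, minus strand), the gene of heparin-binding EGF-like growth factor, was already well detected in the control-labelled nerves. Its values were 2123, 1789 and 2021 in control replicates and 15188, 13346 and 15411 in mutant replicates. The mean rose 7.41-fold, from 1978 ± 171 to 14648 ± 1133, with little spread in either group. The log2 fold change was 2.89 (standard error 0.10, 95% interval 2.65 to 3.13, adjusted p = 2.03e-06), the narrowest interval among the 10 genes. A gene without a symbol on the opposite strand (GSMG0066837) spans *Hbegf*, with values of 48.2 to 66.6 in control-labelled and 258 to 414 in mutant-labelled libraries.

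*Tgfa* (GSMG0032151, chromosome 6, 86195223 to 86275743, plus strand), the gene of TGF-alpha, was the ligand gene that fell. Values were nearly equal in control replicates, at 1743, 1706 and 1787, and were 1082, 616 and 673 in mutant replicates. The mean went from 1745 ± 40.6 to 790 ± 255, a ratio of 0.453. The log2 fold change was -1.19 (standard error 0.20, 95% interval -1.65 to -0.72, adjusted p = 0.00263). Mutant replicate 1 kept the highest *Tgfa* value of its group.

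Markers of several other cell types differed between the groups as well. Of 5 skeletal muscle markers (*Acta1*, *Ckm*, *Myh3*, *Myh8*, *Tnnt3*), 4 rose, and their summed value was 5187 to 28318 in control-labelled and 34500 to 267697 in mutant-labelled libraries. Of 4 epithelial markers (*Krt5*, *Krt14*, *Krt8*, *Epcam*), 2 passed upward, *Krt5* and *Krt14*, with adjusted p of 0.0571 and 0.0836, and their sums overlapped, at 0 to 48.9 and 25.7 to 157. Of 3 T cell markers matched (*Cd3e*, *Cd3d*, *Cd2*), *Cd2* rose, *Cd3e* did not pass and *Cd3d* was at 0 in every control-labelled library, with sums of 10.1 to 34.0 and 38.6 to 105. *Krt5*, *Krt14* and *Cd2* reached the minimum mean through the mutant-labelled libraries alone, so here too a difference was built in.

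Other markers were lower. Of 5 macrophage markers (*Csf1r*, *Cd68*, *Adgre1*, *Aif1*, *Cx3cr1*), *Csf1r* (-1.25 on the log2 scale) and *Cx3cr1* (-1.83) fell and *Aif1* rose (1.04), with sums of 7545 to 9382 in control-labelled and 3910 to 5505 in mutant-labelled libraries. Of 4 fibroblast markers (*Pdgfra*, *Col1a1*, *Dcn*, *Lum*), *Col1a1* fell (-1.10), while *Pdgfra* (0.16), *Dcn* (0.0049) and *Lum* (-0.43) did not pass. The summed value, 1211081 to 1381384 in control-labelled and 478182 to 748607 in mutant-labelled libraries, is mostly *Col1a1*. Of 4 mast cell markers (*Cpa3*, *Cma1*, *Kit*, *Mcpt4*), *Cpa3* passed downward (-1.19, adjusted p = 0.0638), with overlapping sums of 2907 to 8715 and 3175 to 3706. None of the markers of perineurial, endothelial and mural cells or adipocytes passed. Mutant replicate 2, the highest library for *Areg*, *Ereg* and *Btc*, also had the highest sums of its group for epithelial (93.8, 157 and 25.7 in mutant replicates 1, 2 and 3), mural (20632, 60804 and 34617), endothelial (14563, 19482 and 14559), perineurial (11667, 13015 and 10977) and adipocyte markers (3173, 22773 and 4331). The other sums did not peak there. Skeletal muscle (82948, 34500 and 267697 in mutant replicates 1, 2 and 3) and mast cell sums were highest in mutant replicate 3. SC, fibroblast, macrophage and T cell sums were highest in mutant replicate 1. *Nrg1* and *Hbegf*, ligand genes that rose too, had their lowest mutant-labelled value in replicate 2. The part of any of these cells in the values of the 10 genes was not tested.

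**Figure D2:**
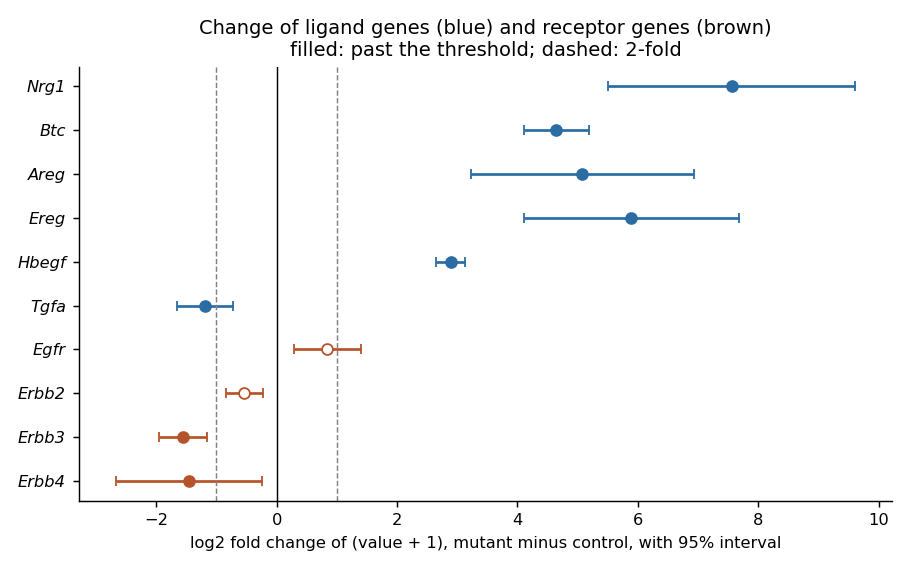
Log2 fold change of (value + 1), mutant-labelled minus control-labelled, with its 95% interval from limma, for ligand genes (blue) and receptor genes (brown). Filled points passed the threshold, and dashed lines mark a 2-fold change: 5 ligand genes lie to the right, from 2.89 to 7.56, while *Tgfa*, *Erbb3* and *Erbb4* lie beyond the left line.

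*Erbb3* (GSMG0004774, chromosome 10, 128567530 to 128589652, minus strand), the neuregulin-binding receptor of SCs, had values of 9161, 10842 and 11041 in control replicates and 4207, 2648 and 3912 in mutant replicates. The mean fell from 10348 ± 1033 to 3589 ± 828, to 0.347 of the control-labelled level. The log2 fold change was -1.55 (standard error 0.17, 95% interval -1.95 to -1.15, adjusted p = 0.000296).

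*Erbb2* (GSMG0005881, chromosome 11, 98412484 to 98437716, plus strand), the partner receptor without a ligand, had values of 4852, 5725 and 5724 in control replicates and 4523, 3334 and 3460 in mutant replicates. The groups did not overlap, but the difference was under 2-fold and did not pass the threshold. The means were 5434 ± 504 and 3772 ± 653, and the log2 difference was -0.54 (standard error 0.14, 95% interval -0.85 to -0.22, adjusted p = 0.0166).

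The ratio of the *Erbb2* value to the *Erbb3* value was formed within each library, so that library scaling has no part in it. It was 0.530, 0.528 and 0.518 in control replicates and 1.08, 1.26 and 0.884 in mutant replicates. The ratio was nearly the same in every control-labelled nerve, was higher in every mutant-labelled one and varied more among the latter. Its mean was 0.525 ± 0.00605 in the first and 1.07 ± 0.187 in the second group, and the difference of mean log2 ratios was 1.02. An exact two-sided permutation test over the libraries gave p = 0.1, the smallest value that 3 libraries against 3 allow. The 2 genes were not scaled by length, so the ratio compares libraries and not the amounts of both receptors.

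**Figure D3:**
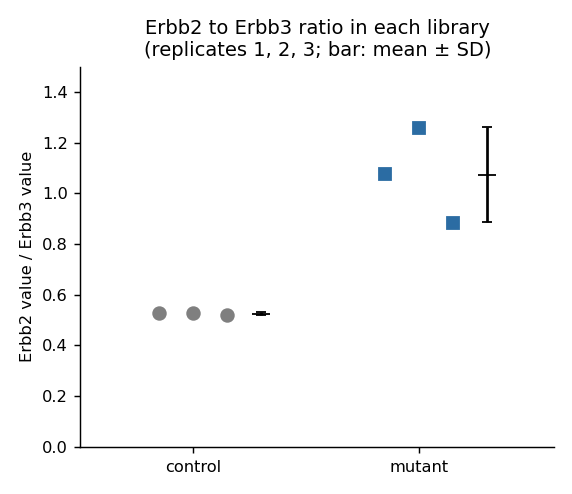
Ratio of the *Erbb2* to the *Erbb3* value (vertical axis, linear, from 0) in each control-labelled (grey circles) and mutant-labelled (blue squares) library, with mean and SD beside the points. The control-labelled libraries lie at 0.518 to 0.530 and the mutant-labelled libraries at 0.884 to 1.26.

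Genes that mark SCs did not all move with *Erbb3*. *S100b*, the gene of a calcium-binding protein of SCs, fell from 8195 ± 171 to 1036 ± 444 (-3.07 on the log2 scale, standard error 0.25, adjusted p = 6.05e-05). *Sox10*, the transcription factor of the SC lineage, stayed under 2-fold at -0.71 (standard error 0.16, adjusted p = 0.00874), and *Cdh19*, an adhesion gene of early SCs, was at 0.13 (standard error 0.14, adjusted p = 0.492). By electron microscopy at P4, the paper reports similar SC numbers in the nerves of controls and mutants. The part of SC number or state in the *Erbb3* values was not tested here.

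*Erbb4* (GSMG0001693, chromosome 1, 68032186 to 69108060, minus strand), which binds neuregulins as well as several EGF ligands, had low and uneven values. They were 430, 239 and 539 in control replicates and 332, 91.7 and 86.0 in mutant replicates, and the groups overlapped. The means were 402 ± 152 and 170 ± 140, and the log2 fold change of -1.46 (standard error 0.53, 95% interval -2.67 to -0.24) passed the threshold with an adjusted p = 0.0637. On the recovered reads it was -1.24 with both edgeR, where it did not pass, and DESeq2, where it did (adjusted p = 0.0386). Without mutant replicate 1, the highest of its group, the log2 fold change was -2.09 (adjusted p = 0.00718), while the call was lost without control replicate 1 (-1.37) or 3 (-1.21), and without mutant replicate 2 (-1.17) or 3 (-1.12). *Erbb4* shares sequence on its own strand with 24 other rows of the table, so its reads may be split among them.

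*Egfr* (GSMG0004899, chromosome 11, 16752201 to 16913907, plus strand), the receptor of amphiregulin, TGF-alpha and, with ERBB4, of the other EGF ligands, was the receptor gene with higher values in mutant-labelled libraries. Its values were 646, 710 and 438 in control replicates and 1114, 780 and 1335 in mutant replicates, which did not overlap. The means were 598 ± 142 and 1076 ± 280, a ratio of 1.80. The log2 fold change of 0.84 (standard error 0.25, 95% interval 0.28 to 1.40, adjusted p = 0.0284) was under the 2-fold threshold. It passed without mutant replicate 2 (1.06) and when libraries were scaled to the same total.

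Beyond the 10 genes, 51 genes of the pathway in 4 lists by role were all tested. Of these, 4 rose, 6 fell and 41 did not pass. The 19.6% past the threshold lie near the 24.2% of all tested genes, as do the 28 of 51 whose groups did not overlap beside 49.2%. The median log2 fold change was 0.10. Another 14 had an adjusted p at or under 0.05 with a change under 2-fold (15.1% of all tested genes), 8 of them higher and 6 lower.

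Among the 5 other ligand genes of the family, *Nrg2*, a neuregulin that binds ERBB3 and ERBB4, rose from 28.9, 41.6 and 46.9 in control replicates to 172, 85.9 and 108 in mutant replicates. Its log2 fold change was 1.58 (standard error 0.40, adjusted p = 0.0164). *Epgn*, the gene of epigen, an EGFR ligand, passed in the other direction, with 45.5, 57.6 and 54.5 against 7.27, 25.1 and 27.7 (log2 fold change -1.54, standard error 0.59, adjusted p = 0.0766). *Egf* and *Nrg4* did not pass, with log2 fold changes of 0.67 and 0.60. *Nrg3* had no reads in the control-labelled libraries and values of 7.27, 0 and 25.7 in the mutant-labelled ones, which did not pass either.

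Among 10 genes of proteases that release the ligands or assist in it, none rose and 2 fell, where 10.4% of all tested genes fell. *Adam10*, a main sheddase of betacellulin and EGF, fell from 9509 ± 118 to 3479 ± 387 (-1.46 on the log2 scale, standard error 0.10, adjusted p = 3.03e-05). *Bace2*, a relative of the protease BACE1 that cleaves neuregulin-1, fell from a mean of 2685 to 845 ± 110 (-1.67, standard error 0.13, adjusted p = 4.5e-05). *Adam17*, the main sheddase of amphiregulin, epiregulin, HB-EGF and TGF-alpha, was lower by less than 2-fold (-0.90, standard error 0.10, adjusted p = 0.000251), and *Bace1* itself was at 0.26 (adjusted p = 0.36).

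Among 27 genes of adaptors and downstream kinases, 1 rose, 3 fell and 23 did not pass, or 14.8% past the threshold beside 24.2% of all tested genes, with a median of -0.06. *Braf*, a kinase at the top of the MAP kinase cascade, rose from 98.5 ± 19.1 to 261 ± 48.6 (log2 fold change 1.40, adjusted p = 0.00441). *Pik3r2* (-1.08, adjusted p = 0.000572) and *Pik3r3* (-1.21, adjusted p = 0.00398), genes of regulatory subunits of PI3 kinase, were among those that fell. Among those that did not pass were the adaptor gene *Grb2* (-0.08) and the kinase gene *Akt1* (0.07).

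Among 9 genes of receptor inhibitors, 2 rose and none fell, a share of 22.2% past the threshold that is close to the 24.2% of all tested genes. The groups did not overlap for any of the 9, beside 49.2% of all tested genes. *Errfi1*, a feedback inhibitor that binds the EGFR kinase, rose from 2349 ± 218 to 5071 ± 225 (1.11 on the log2 scale, standard error 0.10, adjusted p = 0.000107). *Cblb*, a ubiquitin ligase of activated receptors, rose from 310 ± 101 to 674 ± 76.2 (1.17, standard error 0.26, adjusted p = 0.00903). Another 5 were higher by less than 2-fold with an adjusted p at or under 0.05, among them *Lrig1* (0.95) and *Socs5* (0.90). *Rnf41*, whose product Nrdp1 directs ERBB3 to degradation, was the inhibitor gene with lower values (-0.62, standard error 0.11, adjusted p = 0.00352). The median of the list was 0.64, beside 0.03 over all tested genes.

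**Figure D4:**
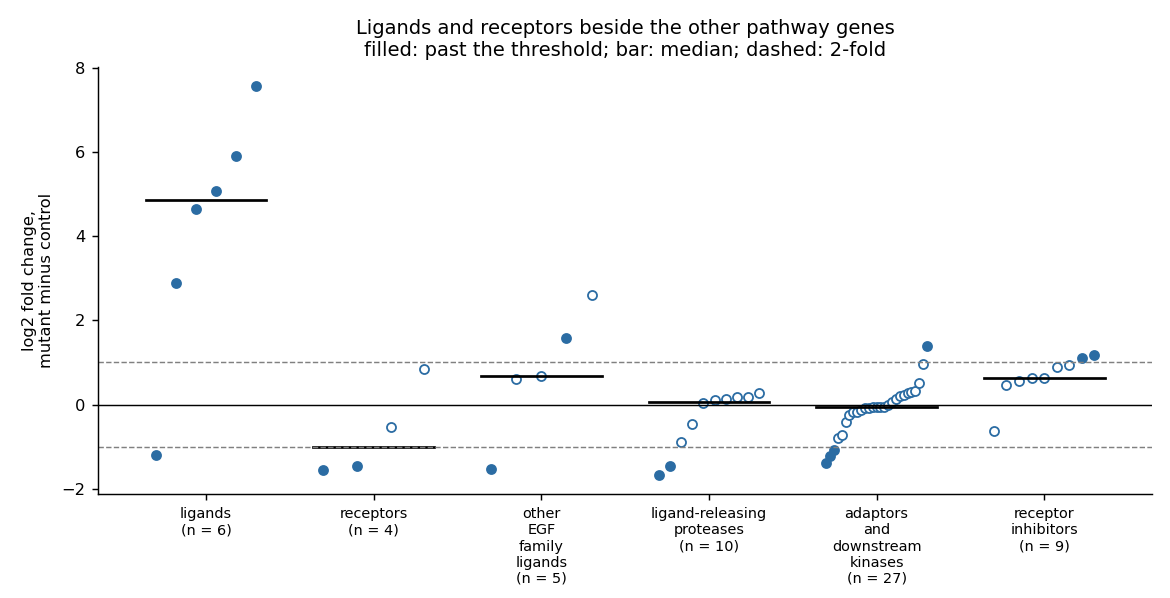
Log2 fold change, mutant-labelled minus control-labelled (vertical axis), of the 6 ligand and 4 receptor genes and of 51 other pathway genes by role; 1 point is 1 gene, filled when past the threshold, and bars are medians. The ligand genes spread from -1.19 to 7.56, while the 27 adaptor and kinase genes lie around a median of -0.06.

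*Epgn*, *Ereg*, *Areg* and *Btc* are neighbors within 376 kb of chromosome 5. In this stretch and 200 kb on either side, a window chosen after the values were seen, 9 rows carried a symbol and 8 were tested. *Cxcl1* and *Cxcl2*, genes of chemokines that attract neutrophils, lie on one side of the cluster and rose. *Cxcl1* went from 50.3 ± 15.9 to 975 ± 63.4 (4.29 on the log2 scale, standard error 0.27, adjusted p = 1.6e-05), and *Cxcl2* from 3.99 ± 4.89 to 191 ± 48.9 (5.82, standard error 0.84, adjusted p = 0.00105). *Cxcl2* reached the minimum mean through the mutant-labelled libraries alone, as *Ereg* and *Areg* did, so its difference was built into its being tested. Between them and the ligand genes, *Mthfd2l*, a mitochondrial folate enzyme gene, fell from 4274 ± 219 to 1631 ± 159 (-1.39, standard error 0.11, adjusted p = 4.65e-05), as *Epgn* did next to it. *Parm1*, beyond *Btc*, was at 0.38 (standard error 0.48, adjusted p = 0.578). Higher and lower values in the mutant-labelled libraries were thus found side by side within this window, and *Epgn* and *Ereg*, whose starts are 47.2 kb apart, differed in direction.

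**Figure D5:**
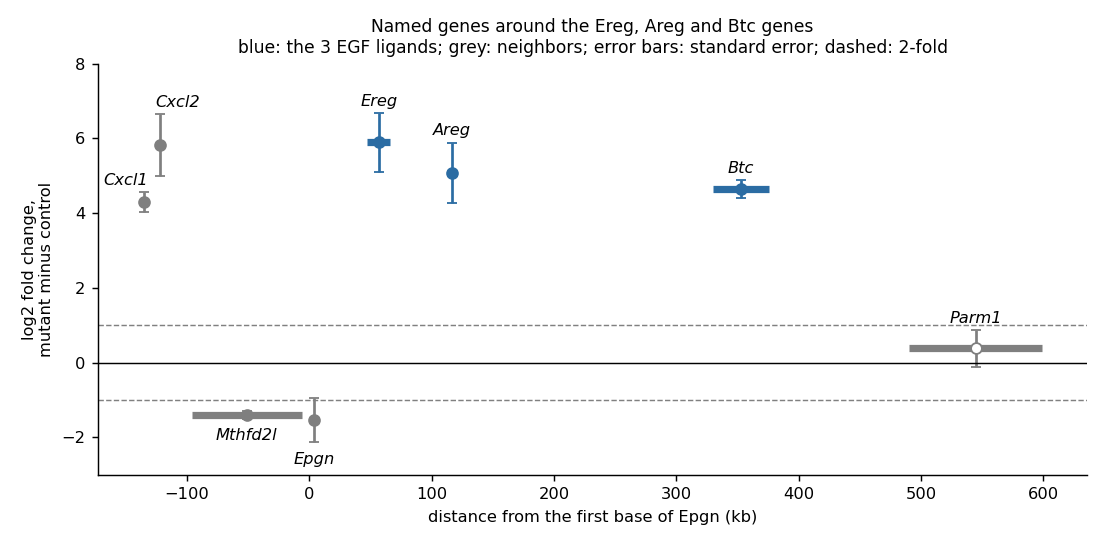
Log2 fold change with standard error (vertical axis) of the 8 tested genes against the distance in kb from the first base of *Epgn*, with thick bars for the length of each gene, ligand genes of the 10 in blue and filled points past the threshold. *Ereg*, *Areg* and *Btc* lie at 4.65 to 5.89, *Epgn* and *Mthfd2l* at -1.54 and -1.39.

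Profiles over the 6 libraries were compared by the distance between log2(value + 1) values centred on their own mean, over 16648 tested genes with a symbol. Nearest to *Nrg1* were *Elobl* (distance 1.62), *H2-Q5*, *Oasl1*, *Gzma* and *Fosl1* (2.30), all with log2 fold changes from 6.18 to 7.83. Even the nearest of them differed visibly from *Nrg1*: *Elobl* had 340, 1007 and 587 in mutant replicates, where *Nrg1* was even. Nearest to *Erbb3* were *Park2* (distance 0.177), *Cryab*, *Foxo4*, *Sirt2* and *Slc26a11* (0.237), with log2 fold changes from -1.59 to -1.45. Each of these 5 genes had its lowest value in mutant replicate 2, as *Erbb3* did. These distances rest on 6 libraries in 2 groups and are given as a description.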

How the data were processed

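RNA-seq values came from 6 libraries, 1 per animal. The authors aligned reads to mm10 with STAR 2.4.0, took counts over the constitutive parts of FAST DB genes and normalized them with DESeq2, and the result was deposited as a signal for every gene in every library. Dividing by the value of 1 read gave whole numbers (tolerance 0.01), and edgeR and DESeq2 were run on these reads. The 10 genes and all lists were chosen with earlier results of these data known. log2(value + 1) was fitted with limma 3.58.1 (lmFit, eBayes with trend) in R 4.3.3, mutant minus control, with no covariate. The named genes are the 10 members, the pathway genes past the threshold, the 5 nearest profiles of *Nrg1* and *Erbb3*, and *Adar*; other pathway genes and the chromosome 5 neighbors were named after their values were seen. A few genes of the lists are counted but not reported by name. On simulated counts, limma called 195 of 198 changed genes (98.5%) and 125 unchanged ones (0.510%) among 24710 tested. The simulation gave every gene the same dispersion and changed a far smaller share of genes than passed in the data. Its rates therefore check the code and are not error rates of these data. Alternatives were pseudocounts of 0.1 and 10, no minimum or a minimum mean of 50, libraries scaled to the same total or 75th percentile, TMM, edgeR 4.0.16, DESeq2 1.42.0, an adjusted p at or under 0.05, a replicate block, and each library left out in turn. Python 3.11.15 was used with pandas 2.3.3, scipy 1.17.1 and matplotlib 3.10.9. *Nrdc* was matched as *Nrd1*, and the T cell marker *Trac* had no row. Coordinates are those of mm10, and GENCODE M21 and RefSeq GRCm38.p6 are of the same build. Motifs were textbook consensus letters, matched in the 250 bases before each RefSeq start on both strands; those of ISRE and NF-kB are given by name.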

Additional observations from a re-analysis of the deposited data

How the results depend on the processing

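Over 17 other settings, the 10 genes gave 169 log2 fold changes, of which 0 changed sign and 8 changed the call, 2 of *Egfr* and 6 of *Erbb4*. The absence of sign changes was partly fixed in advance. The adjusted p setting reuses the fold changes of the main fit. *Areg* and *Ereg* had no reads in the controls and *Nrg1* had few, so their signs could hardly turn in any setting. Scaling to the same total moved the median of all tested genes from 0.03 to 0.19, and the pathway genes that rose from 4 to 7. Leaving out each library gave 5 to 6 members higher and 2 to 3 lower, 3 to 6 pathway genes higher and 4 to 6 lower, 5743 to 6334 genes past the threshold in all, and a log2 difference of 0.89 to 1.15 for the *Erbb2* to *Erbb3* ratio. *Areg* was not tested at a minimum mean of 50, and with the pseudocount and tool the log2 fold change ranged from 2.12 to 8.36 for *Areg*, from 2.80 to 9.19 for *Ereg* and from 5.91 to 8.75 for *Nrg1*. Replicate numbers did not pair the samples (correlations of deviations -0.06, -0.06 and 0.01), and a replicate block left 5 members higher and 3 lower, with 6149 genes past the threshold in all and an adjusted p of 0.0369 from limma for *Erbb4*. The reads limit *Areg*, *Ereg* and the controls of *Nrg1* most.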
